A study of Homo sapiens with 6 samples.

Results

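The 10 genes described here encode the ligands of the transforming growth factor beta (TGF-beta) pathway (TGFB1, TGFB2, TGFB3), its receptors (TGFBR1, TGFBR2, TGFBR3), the signal carrier SMAD3, the feedback inhibitors SMAD7 and SKIL, and the response gene TGFBI. They were taken as every probe set of the array whose platform gene symbol is one of these names, which gave 27 of the 54613 probe sets and 10 of the 19775 genes measured. No probe set with several gene symbols held a member. Expression was compared between CRB3-expressing MCF-10A cells, infected with the pNG retrovirus carrying myc-tagged human CRB3 (3 arrays), and vector control MCF-10A cells, infected with the empty pNG retrovirus (3 arrays). MCF-10A is a human mammary epithelial cell line that is immortalized but not transformed. Both groups were infected, selected with puromycin, grown in normal MCF-10 medium and harvested as proliferating monolayers at 70% confluence. The paper describes these arrays as made with epidermal growth factor (EGF) present. It also describes moving the tagged CRB3 constructs from pNG into another retroviral vector. No source used here says whether the infected cells were cloned, or whether replicates came from separate infections. The p-values therefore measure only the spread between these samples, which may be technical.

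TGF-beta ligands are secreted in a latent form, bound to their own propeptide and often to a latent TGF-beta binding protein of the matrix, and signal once they are released. The active ligand binds TGFBR2, which phosphorylates TGFBR1, and TGFBR1 then phosphorylates SMAD2 and SMAD3. These join SMAD4 and enter the nucleus, where SKIL represses their targets, and SMAD7, itself a target, shuts the receptor off. In mammary epithelium the pathway is known for growth arrest and for driving epithelial-to-mesenchymal transition.

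None of the 10 genes changed by the thresholds of the study in CRB3-expressing cells. Of their 27 probe sets, 0 were called higher and 0 lower with limma (adjusted p below 0.05 together with more than a 1.5-fold change), against 1.31% of all probe sets called in either direction. The nearest was the brightest probe set of TGFB1, which was 1.36-fold lower in CRB3-expressing cells. It was the 1 member probe set that passed the adjusted p threshold alone (3.70% of the 27, against 3.63% of all probe sets). By limma's p before adjustment, 0 were higher and 5 lower at 0.05 (18.5% of the 27, against 16.3% of all probe sets in either direction). The 5 were the brightest probe sets of TGFB1, SKIL and TGFBI, the only one of SMAD7, and a dim one of TGFBR1. These shares lie near the either-direction shares of the whole array. All 5 were lower, and the share of all probe sets that were lower at 0.05 was not counted. Probe sets of one gene are not independent of each other.

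The overexpressed gene was read first, as a check of the labels. CRB3 had log2 values of 12.16, 12.00 and 12.19 in CRB3-expressing cells, against 7.90, 7.59 and 7.85 in vector control cells (difference 4.33, SE 0.095, limma adjusted p = 1.83e-07). The medians of the 6 arrays lay between 5.84 and 5.88. Pearson's r over all probe sets was 0.997 to 0.998 between arrays of one group and 0.994 to 0.996 between arrays of different groups.

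Differences are given below on the log2 scale, as the mean of the CRB3-expressing arrays less that of the vector control arrays. Over the 27 probe sets they ran from -0.45 (TGFB1) to 0.18 (TGFB2), with a median of -0.039, against a median of 0.0012 over all probe sets. The difference was negative for 18 and positive for 9, that is, negative for 66.7% of them, against 49.6% of all probe sets. Of the 27, 11 turned sign in at least 1 alternative, 7 of the negative ones and 4 of the positive ones. Read in the brightest probe set of each gene, 5 genes were below 0 and 5 above, with 2 of these 10 probe sets among those that turned sign, and the median was 0.0096, against 0.0066 over all genes. The 95% interval of the difference lay within 1.5-fold in both directions for 26 of the 27 probe sets, and that of the brightest TGFB1 probe set reached just past it. The groups did not overlap for 5 probe sets that were lower in CRB3-expressing cells (18.5%, against 10.7% of all probe sets) and for 0 that were higher (against 11.1% of all probe sets). The array holds 8 dim probe sets of these genes, with a mean under 6 in both groups. They are not shown to be above background and may understate a change.

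**Figure D1:**
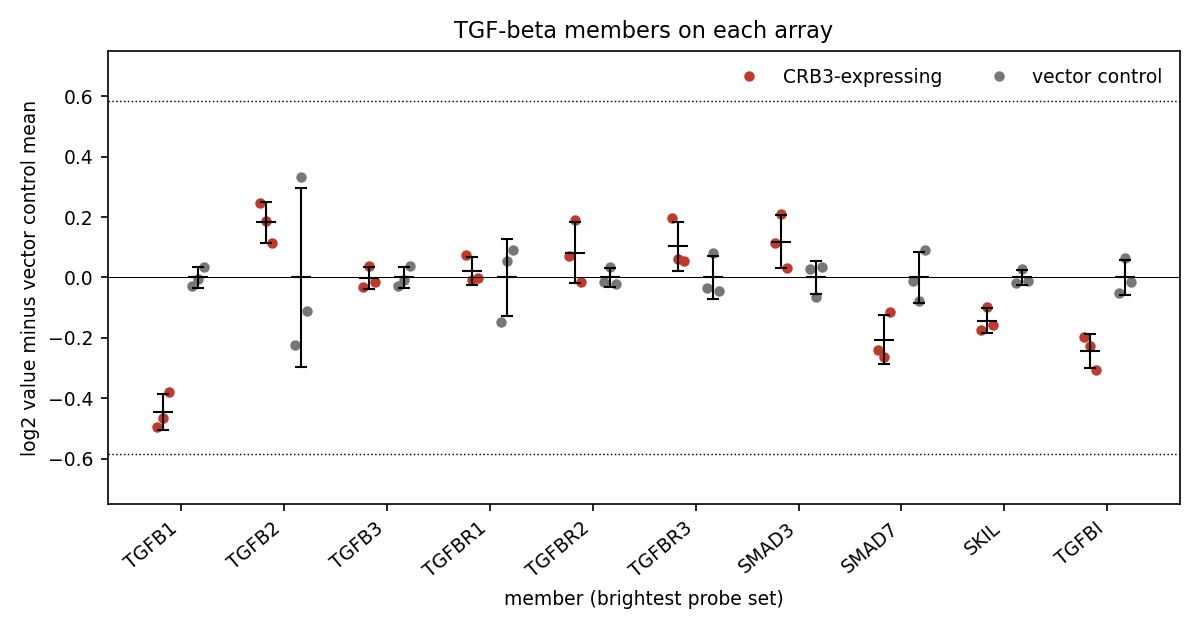
Log2 value of each array minus the mean of the vector control arrays (y axis), for the brightest probe set of each member (x axis); points are the 3 CRB3-expressing arrays (red, left) and the 3 vector control arrays (grey, right), bars are the mean and SD (n = 3), and dotted lines mark 1.5-fold. TGFB1, SMAD7, SKIL and TGFBI have all CRB3-expressing points below all vector control points, and the group means of TGFB1, the farthest apart, differ by -0.45.

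Among the ligands, TGFB1 was the one with a difference beyond the replicate spread. TGFB1, the most widely expressed isoform of the family, is measured by 2 probe sets, which did not give the same picture. The brightest, 203085_s_at, had log2 values of 9.04, 9.06 and 9.15 in CRB3-expressing cells, against 9.50, 9.52 and 9.57 in vector control cells. Every CRB3-expressing array lay below every vector control array (difference -0.45, SE 0.062, 95% interval -0.59 to -0.30, limma adjusted p = 0.00467). The adjusted p passed the threshold and the fold did not. The other probe set, 203084_at, had 6.29, 6.63 and 6.38 in CRB3-expressing cells, against 6.60, 6.36 and 6.35 in vector control cells. Its groups overlapped fully, with a difference of -0.0027 (95% interval -0.24 to 0.24). The intervals of the 2 probe sets do not overlap. Which part of the transcript each probe set reads was not examined here. With probe sets marked _s_at or _x_at left out, which can match several transcripts, 203084_at is the one that remains for TGFB1.

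TGFB2, which binds the receptors with the help of TGFBR3, is read by 5 probe sets. The brightest, 228121_at, had log2 values of 6.93, 6.87 and 6.80 in CRB3-expressing cells, against 6.46, 7.02 and 6.57 in vector control cells. The vector control arrays spanned a wider range than the CRB3-expressing ones (SD 0.067 in CRB3-expressing cells, against 0.29 in vector control cells, n = 3 each), and replicate 2 of the vector control was above all other arrays. The difference was 0.18 (95% interval -0.11 to 0.48, limma adjusted p = 0.554). It was 0.35 without vector control replicate 2 (limma adjusted p = 0.0687) and 0.071 without vector control replicate 1 (limma adjusted p = 0.870). The other TGFB2 probe sets had differences between -0.048 and 0.12, and 2 of the 5 were dim. TGFB3 was represented by dim probe sets alone. Its brighter one had 5.83, 5.90 and 5.85 in CRB3-expressing cells, against 5.83, 5.85 and 5.90 in vector control cells, a difference of -0.0026 (95% interval -0.14 to 0.13) in a range where a change could go unseen.

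The receptor genes did not pass the adjusted p threshold in any of their 7 probe sets. TGFBR2, which binds the ligand first, had log2 values of 12.07, 12.19 and 11.99 in CRB3-expressing cells, against 11.99, 12.04 and 11.98 in vector control cells, in its brightest probe set (difference 0.082, 95% interval -0.077 to 0.24). The second TGFBR2 probe set, 207334_s_at, leaned the other way. It had 9.01, 9.14 and 9.22 in CRB3-expressing cells, against 9.46, 9.15 and 9.40 in vector control cells (difference -0.22, 95% interval -0.43 to 0.00067, limma adjusted p = 0.308), and the groups overlapped by a narrow margin.

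TGFBR1, the kinase that passes the signal to the Smads, had 9.01, 8.93 and 8.94 in CRB3-expressing cells, against 8.79, 8.99 and 9.03 in vector control cells, in its brightest probe set. The CRB3-expressing values lay inside the vector control range (difference 0.022, 95% interval -0.15 to 0.20). The dim TGFBR1 probe set 236561_at had the lowest estimate of the receptors, -0.28 (95% interval -0.55 to -0.021, limma adjusted p = 0.269). Its arrays read 4.30, 4.55 and 4.09 in CRB3-expressing cells, against 4.46, 4.68 and 4.65 in vector control cells, and overlapped. TGFBR3, the co-receptor betaglycan, had 8.54, 8.40 and 8.39 in CRB3-expressing cells, against 8.31, 8.42 and 8.30 in vector control cells, in its brightest probe set. The groups overlapped (difference 0.10, 95% interval -0.057 to 0.26), and the second probe set had a difference of -0.0048.

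SMAD3 binds DNA together with SMAD4 and carries the signal to its targets. Its brightest probe set had log2 values of 8.46, 8.56 and 8.38 in CRB3-expressing cells, against 8.38, 8.29 and 8.38 in vector control cells. That is a difference of 0.12 (95% interval -0.039 to 0.28, limma adjusted p = 0.457). The other 3 SMAD3 probe sets had differences between -0.13 and -0.014. For one of them, 218284_at, the groups did not overlap, with 8.27, 8.29 and 8.25 in CRB3-expressing cells, against 8.34, 8.34 and 8.31 in vector control cells, but the difference was -0.057 (95% interval -0.19 to 0.073). The 4 probe sets thus gave no common direction for SMAD3.

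The feedback inhibitors and the response gene had lower values in CRB3-expressing cells without passing the test. SMAD7, which recruits ubiquitin ligases to the active receptor, is read by 1 probe set. It had log2 values of 7.13, 7.11 and 7.25 in CRB3-expressing cells, against 7.36, 7.29 and 7.46 in vector control cells. No CRB3-expressing array reached the lowest vector control array (difference -0.21, SE 0.072, 95% interval -0.37 to -0.041, limma adjusted p = 0.199). SKIL, also called SnoN, is a repressor that binds SMAD complexes and is degraded when the pathway is active. Its brightest probe set had 7.96, 8.04 and 7.98 in CRB3-expressing cells, against 8.12, 8.16 and 8.12 in vector control cells. These groups were apart by a small margin too (difference -0.14, SE 0.059, limma adjusted p = 0.279). The second brightest SKIL probe set had a difference of -0.092 with groups that overlapped, and the other 3 were dim, with values between -0.11 and 0.054.

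TGFBI encodes a secreted matrix protein that takes its name from its induction by TGF-beta. Its probe set was bright, with log2 values of 13.48, 13.45 and 13.37 in CRB3-expressing cells, against 13.63, 13.74 and 13.67 in vector control cells. The groups did not overlap (difference -0.24, SE 0.065, 95% interval -0.39 to -0.096), and the adjusted p was 0.0903 from limma. It fell under the threshold of 0.05 in 3 of the alternatives tried, where dim probe sets were left out before the fit (0.0494 and 0.0297) and with a mean-variance trend and a robust prior (limma adjusted p = 0.00128), while the fold stayed under 1.5. RNA of whole cultures was measured, so fewer cells with a transcript and less transcript per cell cannot be told apart.

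**Figure D2:**
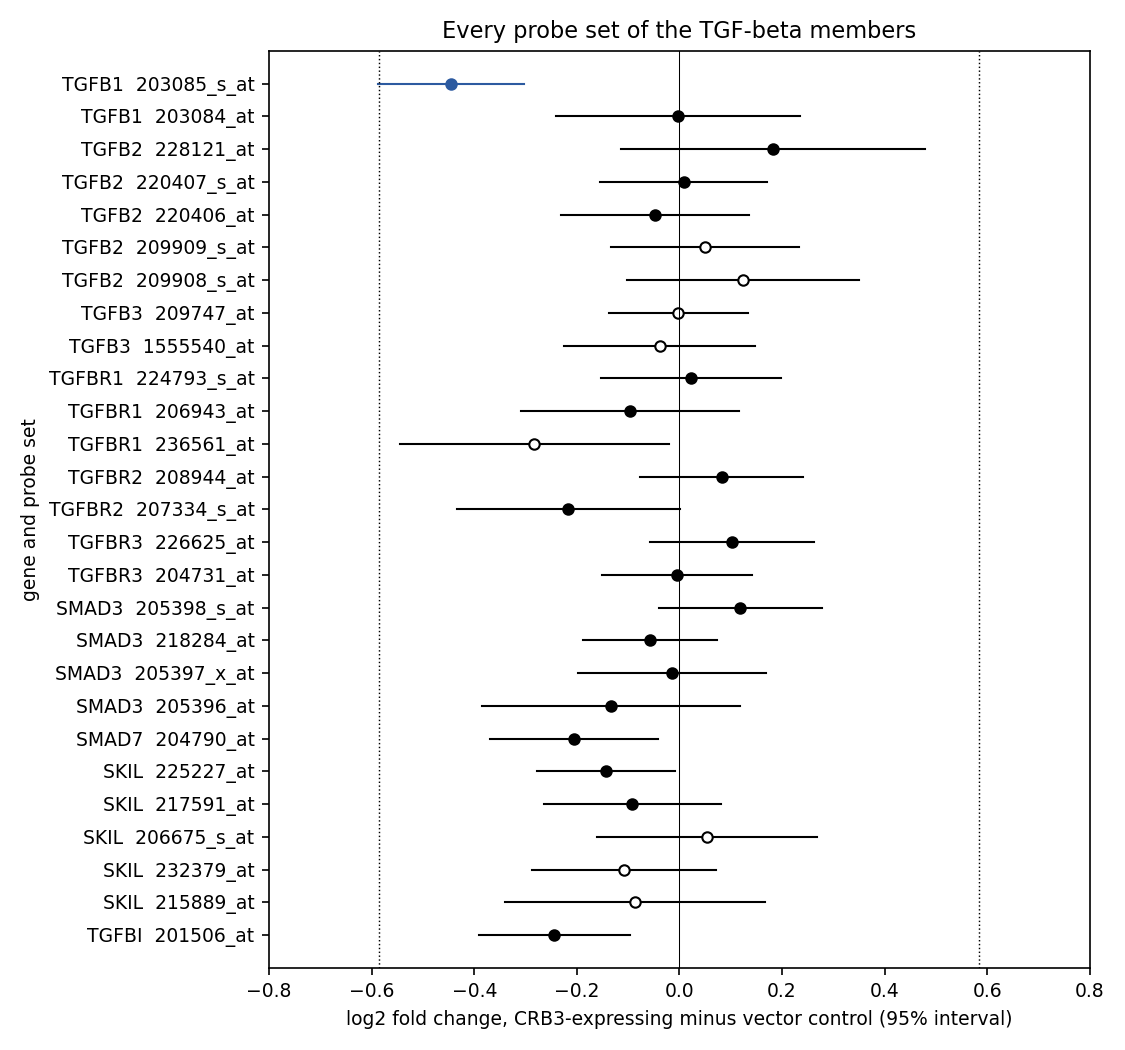
Difference in log2 value between CRB3-expressing and vector control cells (x axis) with its 95% interval from limma for each of the 27 probe sets of the members (y axis, by gene and from the brightest down); blue marks an adjusted p under 0.05, open circles mark dim probe sets, and dotted lines mark 1.5-fold. The TGFB1 probe set 203085_s_at, at -0.45, is the one in blue, and its neighbour 203084_at lies at -0.0027.

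Other genes of the pathway were read in 5 lists by role, each gene in its brightest probe set. Of 100 genes listed, 94 were measured, and 8 were higher, 2 were lower and 84 were not called. Over all genes 1.43% were called higher and 0.465% lower. The other 6 were not analysed here. Calls were made in the list of ligand latency (2) and in the list of response genes (8). The lists were not tested against each other.

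In the list of 13 genes for latency and activation of the ligands, 1 was higher and 1 was lower (median difference -0.092). LTBP1, which tethers the latent ligand to the matrix, was lower in CRB3-expressing cells in both of its probe sets. The brighter had 9.65, 9.71 and 9.67 in CRB3-expressing cells, against 10.33, 10.45 and 10.31 in vector control cells (difference -0.69, SE 0.065, limma adjusted p = 0.000456). The second had a difference of -0.65 (SE 0.094, limma adjusted p = 0.00581). THBS1 encodes thrombospondin, a matrix glycoprotein that can release active TGFB1 from its latent complex. It rose, with log2 values of 12.07, 12.09 and 12.14 in CRB3-expressing cells, against 11.30, 11.06 and 11.16 in vector control cells (difference 0.93, SE 0.075, limma adjusted p = 0.000175). All 5 THBS1 probe sets that were not dim were called higher, with differences between 0.75 and 1.22, and the 2 dim ones had 0.051 and 0.025. Both genes stayed called with each array left out in turn. Both LTBP1 probe sets are marked _s_at, so without such probe sets LTBP1 has no value, while THBS1 was still called. Neither was called by limma's treat against a 1.5-fold change (adjusted p = 1 for LTBP1 and 0.146 for THBS1). PLAT, the plasminogen activator that forms plasmin, which can release the latent ligand, was at -0.41 (limma adjusted p = 0.00639), under the fold threshold.

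**Figure D3:**
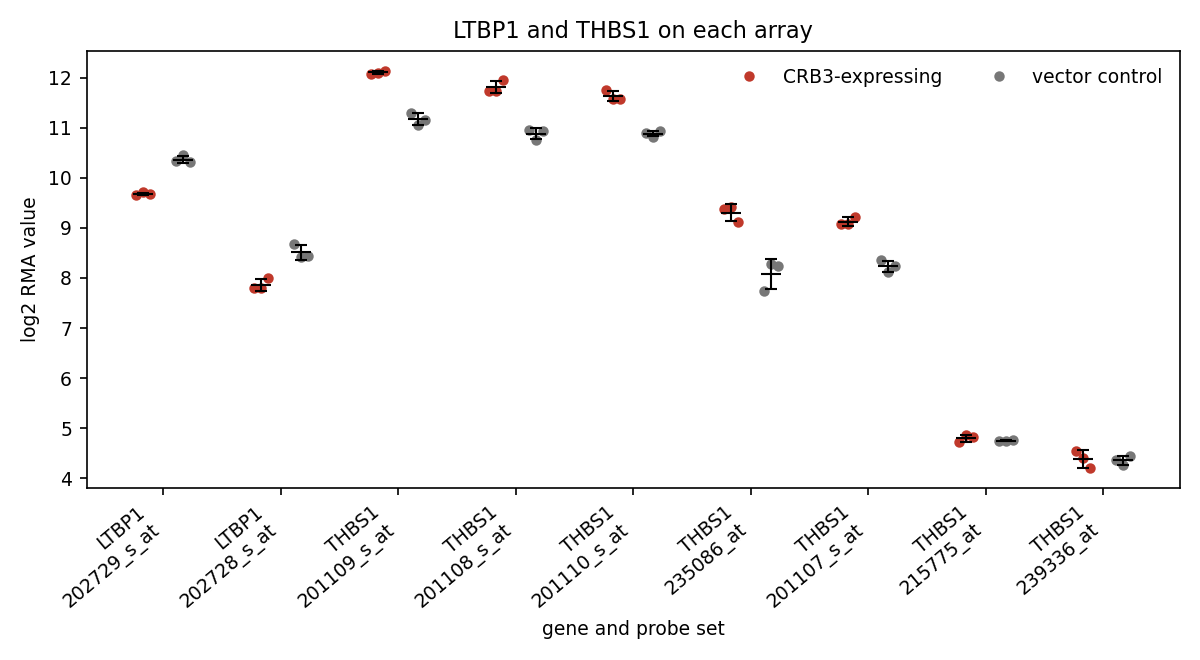
Log2 RMA value (y axis) of each LTBP1 and THBS1 probe set (x axis, by gene and from the brightest down) on the 3 CRB3-expressing arrays (red, left) and the 3 vector control arrays (grey, right); bars are the mean and SD (n = 3). CRB3-expressing points lie below vector control points in both LTBP1 probe sets and above them in the 5 THBS1 probe sets that are not dim.

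The lists of receptors, of Smads, and of inhibitors and feedback held no called gene. At the shares of all genes given above this is near the background for lists of this length. Of 12 other receptors and accessory proteins, 0 were called, and differences ran from -0.16 to 0.21. The 2 smallest p-values belonged to BAMBI, a receptor-like inhibitor without a kinase domain (0.21, limma adjusted p = 0.167), and the activin receptor ACVR2B (-0.16, adjusted p = 0.250). Among 14 other Smads and signal carriers 0 were called as well. SMAD9, a Smad of the bone morphogenetic protein branch, had log2 values of 7.25, 7.39 and 7.09 in CRB3-expressing cells, against 7.63, 7.85 and 7.65 in vector control cells. It passed the adjusted p threshold and not the fold threshold (difference -0.47, SE 0.094, limma adjusted p = 0.0303), and its dim probe set had -0.25. SMAD5, of the same branch, had -0.29 (limma adjusted p = 0.0743). SMAD2, the partner of SMAD3 at the receptor, had 0.21 (95% interval 0.075 to 0.34, adjusted p = 0.105), and SMAD4 had -0.21 (95% interval -0.38 to -0.051, adjusted p = 0.177). Of the 17 genes listed under other inhibitors and feedback, not all of which are inhibitors, 0 were called. The repressors TGIF2 and TGIF1 were at -0.29 (limma adjusted p = 0.0770) and 0.25 (limma adjusted p = 0.0990). At an adjusted p alone, 1 gene of these 3 lists passed, which is SMAD9. SMAD2, SMAD4 and, elsewhere in the text, PLAT, the genes named for passing the adjusted p threshold alone and the single marker genes lie outside the rule for named genes and were chosen after their values were seen.

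The list of 38 response genes known from epithelial cells had calls in both directions. In CRB3-expressing cells 7 were higher, 1 was lower and 30 were not called, while the median difference was 0.013. The list was not sorted by whether TGF-beta raises or lowers each gene, so these counts and the median give no direction of response. CDKN1C, the cyclin-dependent kinase inhibitor p57, had the largest difference of the list. Its brightest probe set had 8.96, 9.10 and 9.03 in CRB3-expressing cells, against 6.44, 6.44 and 6.59 in vector control cells, a 5.82-fold rise (difference 2.54, SE 0.071, limma adjusted p = 3.43e-07). Of the other 4 CDKN1C probe sets, 3 were called higher, by 3.99- to 5.44-fold, and a dim one had -0.11. TAGLN, which encodes an actin-binding protein, rose to 9.40 in CRB3-expressing cells, against 7.90 in vector control cells, in its brightest probe set, while its least bright, at 7.14 in CRB3-expressing cells, against 7.06 in vector control cells, was not called and is the one not marked _s_at. The matrix protein FN1 was higher by 0.59 on the log2 scale (SE 0.082, limma adjusted p = 0.00421), just past the fold threshold, and 0 of its other 6 probe sets were called, although 3 of them, at 0.54 to 0.57, passed the adjusted p threshold. SNAI2, a repressor of epithelial genes, had 9.51, 9.42 and 9.35 in CRB3-expressing cells, against 10.26, 10.28 and 10.30 in vector control cells (difference -0.86, SE 0.066, limma adjusted p = 0.000130).

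The remaining calls of the list, named after their values were seen, were rises of ID2, an inhibitor of helix-loop-helix factors (difference 1.12), the actin-binding tropomyosin TPM1 (0.98), the matrix protein CCN1 (0.91) and the cross-linking enzyme TGM2 (0.74). All probe sets of ID2 and CCN1 were called higher. TPM1 was called only in probe sets marked _s_at or _x_at. Its others had 0.29 and, where dim, 0.13 and 0.19. The other TGM2 probe sets, at 0.30, 0.24 and -0.085, were not called. FN1 was not called without CRB3-expressing replicate 1 (0.53) or vector control replicate 1 (0.58) or 2 (0.57), each under the fold threshold. TGM2 was not called without CRB3-expressing replicate 2 (0.58, under the fold threshold), nor without CRB3-expressing replicate 3 or vector control replicate 1 or 3 (limma adjusted p = 0.0583, 0.0791 and 0.0727). At the adjusted p threshold alone the list had 10 higher and 3 lower. The 5 added by dropping the fold threshold were FSTL3 (0.54), CDKN1A (0.50), ID3 (0.35), VIM (-0.39) and HMGA2 (-0.47). Of the 38 genes of the list, 7 were called higher and 1 lower, against 1.43% and 0.465% of all genes. Calls in this list thus ran in both directions, most of them higher. Its members answer to other pathways as well, and several were known from earlier results of these arrays when the list was drawn up.

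**Figure D4:**
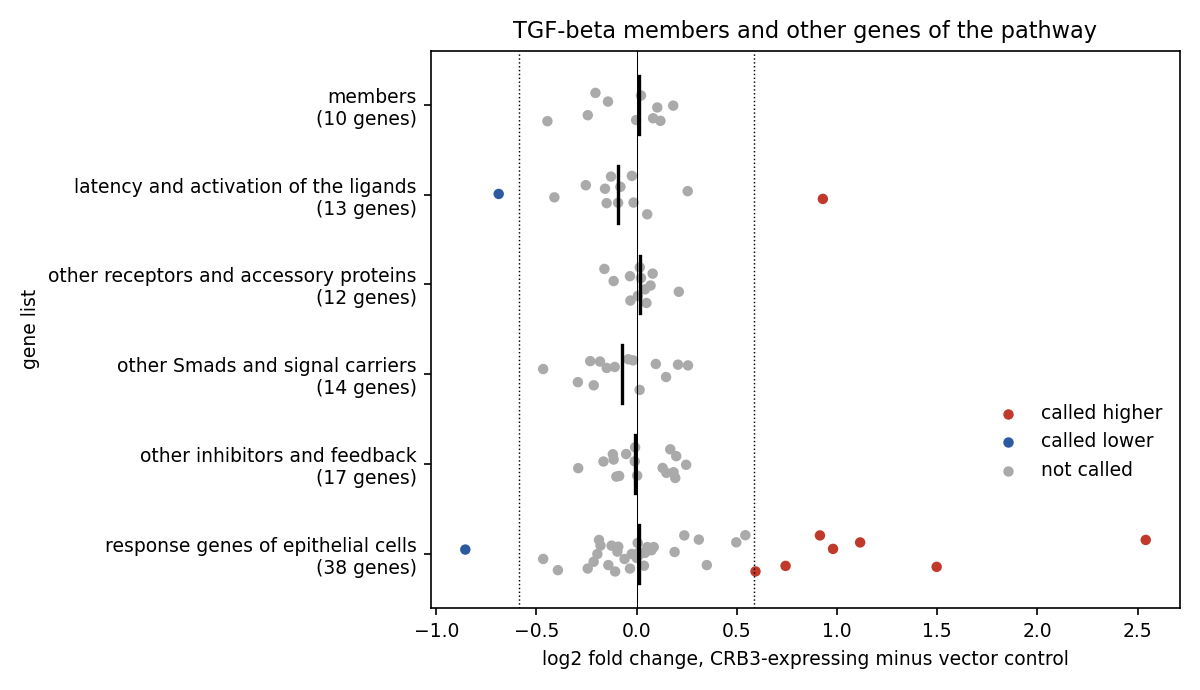
Difference in log2 value between CRB3-expressing and vector control cells (x axis) of the 10 members and of the genes in 5 other lists of the pathway (y axis), each gene in its brightest probe set; red points were called higher, blue called lower and grey not called, black bars are medians and dotted lines mark 1.5-fold. The members lie between the dotted lines, and the called points belong to the latency list (1 higher, 1 lower) and the response list (7 higher, 1 lower).

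The cells carried the markers of mammary epithelium. Of 7 measured epithelial markers, 3 were higher in CRB3-expressing cells and 0 lower, and the mean log2 value of the list was 12.29 to 12.38 on the CRB3-expressing arrays, against 11.63 to 11.67 on the vector control arrays. The 3 were KRT14 (difference 1.83), CDH1 (1.10) and KRT8 (1.08). EPCAM (0.38) and KRT18 (0.36) passed the adjusted p threshold and not the fold threshold. KRT5, which was not called, averaged 13.58 in CRB3-expressing cells, against 13.62 in vector controls. Of 8 fibroblast markers, 0 were higher and 1 was lower (DCN, -0.76), with a list mean of 5.78 to 5.85 on CRB3-expressing arrays, against 5.85 to 5.95 on vector control arrays. Of 5 leukocyte markers, 1 was higher (CSF1R, 0.60), with a list mean of 6.23 to 6.41 on CRB3-expressing arrays, against 6.17 to 6.22 on vector control arrays, and of 5 endothelial markers 0 were called. Of these, 2 leukocyte and 3 endothelial markers were dim. Among the dim ones, PTPRC had 4.19 in CRB3-expressing cells, against 4.16 in vector control cells. CDH5 had 4.15 in CRB3-expressing cells, against 4.16 in vector control cells. The others were not dim. CD14 averaged 8.27 in CRB3-expressing cells, against 8.32 in vector control cells, and CSF1R 7.64, against 7.04. ITGAM averaged 6.34, against 6.41, PECAM1 6.55, against 6.61, and VWF 6.18, against 6.10, in the same order of groups. COL1A1 is in both the fibroblast and the response list. The part of these markers in the results above was not tested.

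Promoter windows of RefSeq (build GRCh38.p14, 250 bases before to 50 after each gene start) were found for all 10 members, 25 windows in all. Motifs were read on both strands, and none of the 3 contains another. The Smad palindrome GTCTAGAC was in 0 of the 25, against 0.202% of the 35116 windows of all genes. The shorter Smad box CAGAC was in 12 windows of 6 members, and 45.3% of all windows hold it. The AP-1 motif TGANTCA was in 2, against 7.71% of all windows. A match in these letters is not a binding site.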

How the data were processed

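Total RNA of 6 samples was hybridized to Affymetrix Human Genome U133 Plus arrays, 1 per sample. The authors corrected the background and normalized with the Robust Multichip Average (RMA) method in R, and the deposited log2 values (a single value for each probe set on each array) were used as they stand. Versions are not given in the sources used here. The values carry no detection calls, RMA pulls small changes of dim probe sets toward 0, and precision is limited by having 6 arrays.

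Groups came from the sample titles. Differences (CRB3-expressing minus vector control) were fitted with limma 3.58.1 in R 4.3.3 over 54613 probe sets, without the 62 control probe sets, and p-values were adjusted across the whole array after Benjamini and Hochberg. Calls needed an adjusted p below 0.05 and more than a 1.5-fold change, as in the study's methods. Intervals are limma's, at 95% and unadjusted. Symbols came from the platform annotation (1 symbol for 41091 probe sets, several for 1801, none for 11721), with 0 changed through the Entrez identifiers of RefSeq. Each gene was read in its brightest probe set, by the mean of the 6 arrays.

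Named in the text are the 10 members with their probe sets, CRB3, and in each pathway list up to 4 called genes (the 2 highest and the 2 lowest by fold change) or, with no call, the 2 genes of smallest p. Members and lists were chosen with earlier results of these data known. The fit was tested on simulated data with seeded changes and noise drawn independently for each probe set. Dependence between probe sets or between samples was not simulated. Alternatives covered the replicate block, variance models, normalization, filters, array weights, fold thresholds, treat, shared probe sets, the mean over a gene's probe sets, and each array left out.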

Additional observations from a re-analysis of the deposited data

How the results depend on the processing

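The counts of member probe sets called, 0 higher and 0 lower, were the same under all alternatives but one: with no fold threshold, 1 was lower, the brightest of TGFB1. Over 17 alternatives its log2 fold change ran from -0.48 to -0.42, with an adjusted p from limma between 0.000224 and 0.0386 except for treat against a 1.5-fold change (adjusted p = 1). Of the pathway genes, 8 higher and 2 lower, the counts became 5 higher with an ordinary pooled variance, 5 higher with the mean over all probe sets of a gene, 4 higher and 2 lower without probe sets marked _s_at or _x_at, 2 higher and 0 lower with treat, 3 higher and 0 lower at a fold change above 2, and 11 higher and 6 lower with no fold threshold. Without probe sets marked _s_at or _x_at, 73 genes could be read, and the 2 lower were SNAI2 and HMGA2 (-0.67), with LTBP1 not among those read. FN1, ID2 and TGM2 were lost with the pooled variance (limma adjusted p = 0.0912, 0.0887 and 0.219), and FN1 after median-centring (0.58, under the fold threshold). Leaving out each array gave 6 to 7 higher and 2 lower. The deviations of same-numbered arrays from their group means correlated at -0.085, 0.064 and 0.029. Those of differently numbered arrays correlated between -0.19 and 0.16. With so few arrays per group, these values cannot show whether the replicate numbers pair the samples. With the replicate block 0 member probe sets were called and 8 pathway genes were higher and 2 lower, with no call changed.

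Some member probe sets near 0 changed sign. TGFB2 220407_s_at had -0.0049 after median-centring and -0.0038 after quantile normalization, and TGFBR3 204731_at had 0.00064 after quantile normalization. With each array left out, the ranges that crossed 0 were -0.10 to 0.079 (TGFB1 203084_at), -0.036 to 0.064, -0.10 to 0.032 and -0.016 to 0.10 (TGFB2 220407_s_at, 220406_at and 209909_s_at), -0.023 to 0.016 and -0.10 to 0.044 (TGFB3 209747_at and 1555540_at), -0.051 to 0.067 (TGFBR1 224793_s_at), -0.033 to 0.030 (TGFBR3 204731_at), -0.076 to 0.044 (SMAD3 205397_x_at), and -0.00075 to 0.13 and -0.21 to 0.012 (SKIL 206675_s_at and 215889_at). The cause was not tested.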
